A study of Mus musculus with 2 samples.

Results

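Thyroid hormone reaches the brain through membrane transporters, is activated or broken down there by deiodinases that contain selenocysteine, and acts through nuclear receptors that bind DNA with or without the hormone. The receptors repress or activate their target genes depending on the hormone, and in rodents the supply of hormone around birth is known to matter for neuronal migration, myelination and cortical wiring. The 8 genes described here were chosen by name for these roles, and 8 of 8 were found among the 43346 genes of the deposited tables: the receptor genes Thra and Thrb, the deiodinase genes Dio2 and Dio3, the transporter gene Slco1c1, the cytosolic hormone-binding protein gene Crym, and the receptor target genes Klf9 and Hr. Total RNA was sequenced from 2 newborn mice of strain B6NCrl at postnatal day 0, with a single forebrain in each library. They are pup 1, which is replicate 1, and pup 3, which is replicate 2. The labels give both the same donor identifier, although they describe separate pups. No second tissue, treatment or genotype is given, and the sex was not collected, so there is 1 group and no contrast between conditions.

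The libraries held 40066386 expected counts in pup 1 and 40431595 in pup 3. Levels are deposited TPM, the share of a gene among all transcripts of the library, scaled to a fixed total, which corrects for length. The smallest p that an exact test on the signs of 2 ratios allows is 0.5 (two-sided), so a difference between genes is called larger than the spread between the pups only where the mean log2 ratio is over 3 SD. Forebrain markers were present, with 10 of 10 cortical and 10 of 10 striatal neuron genes at 1 TPM or more in both pups. Of 12 thyroid and pituitary genes, 3 reached that level, namely Pomc, Slc5a5 and Tshr. Pomc was the highest, at 4.07 TPM in pup 1 and 3.01 TPM in pup 3, and growth hormone (Gh) was at 0 in both pups. TPM was higher in pup 1 for 80.4% of the 14985 genes with a mean of 1 TPM or more, with a median log2 ratio of pup 1 over pup 3 of 0.27. After TMM scaling of the counts, which equalises the bulk of genes, 48.9% were higher in pup 1 and the median log2 ratio was -0.01.

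The sequences that set the forms of the 2 receptor genes apart are given first, because the isoform shares reported further on rest on them. Thra makes a receptor called TRα1 and a longer splice form, TRα2, that binds DNA but not the hormone. In GENCODE M21 on GRCm38, the transcript called Thra-TRα1 here (ENSMUST00000103139) encodes 410 codons, the length of TRα1. Thra-TRα2 (ENSMUST00000064187) encodes 492, the length of TRα2. They share 370 codons up to base 98764405 of chromosome 11. Thra-TRα1 then reads on into the same exon for 40 codons of its own, whereas Thra-TRα2 is spliced to a further exon with 122 codons of its own. Thra-open (ENSMUST00000124072) enters that exon 117 bases later and has no annotated stop codon. The last 30 shared bases are printed in lower case and the first 30 bases after the divergence in capitals (plus strand of chromosome 11).
Thra-TRα1: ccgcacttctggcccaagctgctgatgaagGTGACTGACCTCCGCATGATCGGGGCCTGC
Thra-TRα2: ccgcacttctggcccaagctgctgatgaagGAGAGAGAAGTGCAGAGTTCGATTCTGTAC
Thra-open: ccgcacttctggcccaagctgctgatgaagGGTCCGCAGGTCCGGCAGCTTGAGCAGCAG

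Thrb makes TRβ1 and TRβ2, which differ in their first coding exons. The first 45 coding bases of each form, on the plus strand of chromosome 14, are shown with the start codon in capitals. Thrb-TRβ1a (ENSMUST00000022303) begins a reading frame of 461 codons, the length of TRβ1, at base 17925638. Thrb-TRβ2 (ENSMUST00000022304) begins one of 475 codons, the length of TRβ2, at base 17981877.
Thrb-TRβ1a: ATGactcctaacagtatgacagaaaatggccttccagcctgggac
Thrb-TRβ2: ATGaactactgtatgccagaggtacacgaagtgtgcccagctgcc

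Thra had the highest mean of the 8 genes, at 201.85 TPM in pup 1 and 186 TPM in pup 3 (194 ± 11.3, SD, n = 2). Its mean stood above 93.8% of the 13017 nuclear protein-coding genes detected at 1 TPM or more in both pups. The gene lies on chromosome 11 from 98740638 to 98769006 on the plus strand and collected 10766 and 11366 expected counts in pups 1 and 3. Thrb, on chromosome 14 from 17660261 to 18038090, had 1.63 TPM in pup 1 and 0.96 TPM in pup 3 (1.295 ± 0.474), from 228 and 151 counts. Thra was 117 and 175 times Thrb in pups 1 and 3, a mean log2 ratio of 7.16 ± 0.42 on TPM + 0.1, so the gap between the receptor genes was larger than the spread between the pups. The added 0.1 lowers this ratio, since Thrb is low. Without division by length the mean log2 ratio was 5.87 ± 0.47, smaller but still over 3 SD. The deposited lengths of the Thrb transcripts, by which TPM divides, differ from those in M21.

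**Figure D1:**
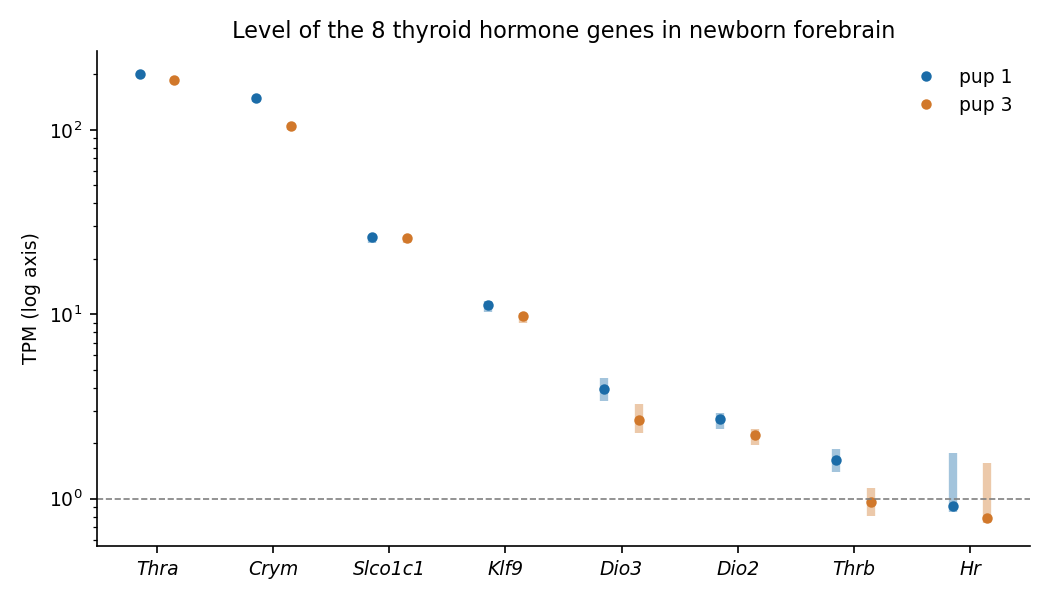
TPM of the 8 genes (log axis) in pup 1 and pup 3, as points, with the deposited credibility interval of each library as a bar and 1 TPM as a dashed line. Thra and Crym lie above 100 TPM in both pups, while Thrb and Hr lie around or under 1 TPM. The intervals surround the posterior mean TPM, another estimate than the points, so those of Hr reach higher than its points.

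Most Thra RNA was assigned to the form that does not bind the hormone. Thra-TRα2 held 78.9% of the TPM of Thra in pup 1 and 82.7% in pup 3 (80.8% ± 2.69, SD, n = 2), with 9316 and 10175 counts. Thra-TRα1 held 7.63% and 5.24%, or 15.4 and 9.74 TPM in pups 1 and 3. Its deposited intervals of 13.6 to 16.6 TPM in pup 1 and 8.49 to 10.7 TPM in pup 3 did not overlap. At gene level, 48% of all genes tested also had intervals apart and a higher TPM in pup 1. Thra-TRα2 was 10.3 and 15.6 times Thra-TRα1 in pups 1 and 3, a mean log2 ratio of 3.66 ± 0.43 that exceeded the spread. Thra-open, which shares the spliced exon with Thra-TRα2, held 9.05% and 9.12%. The other 6 annotated transcripts each held 3.01% or less in both pups, and 2 of the 9 Thra transcripts had 0 counts in both.

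The last Thra exon faces Nr1d1, the gene of the clock repressor REV-ERBα, which is transcribed from the opposite strand. The exons of Thra-TRα2 and Nr1d1 overlap over 263 bases, from 98768157 to 98768419, which is 10.7% of Thra-TRα2. Of the 130 bases of the last Thra-open exon, 130 lie in that overlap, against 0 of the 706 bases that are exonic in Thra-TRα1 alone. The use of strand in counting is not stated, so it cannot be told whether reads in the overlap were separated by gene. Nr1d1 itself had 9.36 TPM in pup 1 and 9.52 TPM in pup 3, and Thra-TRα2 had 17 and 16.1 times as much. Thra-open was nearer to Nr1d1, at 18.27 TPM in pup 1 and 16.95 TPM in pup 3. These levels rest on the same counting, so they do not show how reads in the overlap were assigned.

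**Figure D2:**
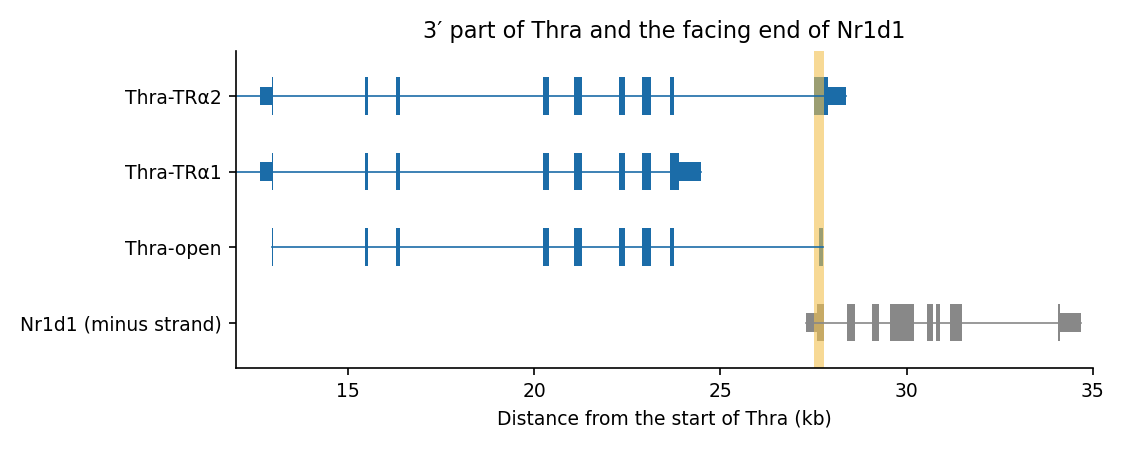
The 3′ part of 3 Thra transcripts and the facing end of Nr1d1, with distance from the start of Thra in kb on the x axis, coding exons as tall boxes and untranslated exons as low boxes. The shaded band is the 263-base overlap, which covers part of the last exon of Thra-TRα2, the whole last exon of Thra-open and none of the exon where Thra-TRα1 ends.

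All Thrb counts were assigned to transcripts whose reading frames have 461 codons in M21. Thrb-TRβ1b (ENSMUST00000091471) held 81.6% and 78.4% and Thrb-TRβ1a 18.4% and 21.6% of Thrb TPM in pups 1 and 3. However, 3 of 3 Thrb transcripts have another length in M21 than in the deposited tables, so the split between them is not described further. Thrb-TRβ2, a form known from pituitary, hypothalamus and retina, had 0 counts in both pups. Its deposited upper bounds of 0.338 TPM in pup 1 and 0.22 TPM in pup 3 leave room for a low level beside a gene total near 1 TPM. On TPM the hormone-binding form of the other gene, Thra-TRα1, was 8.97 and 9.28 times all of Thrb in pups 1 and 3. The mean log2 ratio was 3.19 ± 0.04, a gap larger than the spread. Part of its size comes from division by length, 2246 bases for Thra-TRα1 against 5715 and 5665 for Thrb in pups 1 and 3. Counts had the same direction with a smaller gap, at 823 and 588 for Thra-TRα1 and 228 and 151 for Thrb. This ratio was not tested under other settings.

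The deiodinases stood close together. Dio3, which inactivates the hormone, lies on chromosome 12 from 110279068 to 110281097 in an imprinted region, and had 3.91 TPM in pup 1 and 2.68 TPM in pup 3 from 188 and 141 counts. Dio2, which makes the active hormone and is known from astrocytes and tanycytes, lies on the minus strand of chromosome 12 from 90724552 to 90738438. It had 2.7 TPM in pup 1 and 2.21 TPM in pup 3 from 384 and 356 counts. Dio2 was 0.698 and 0.831 times Dio3 in pups 1 and 3, and the mean log2 ratio of -0.39 ± 0.18 did not exceed 3 SD, so the order of the deiodinases is not settled by these libraries. Their deposited intervals lay apart in pup 1, with 2.38 to 2.9 TPM for Dio2 and 3.37 to 4.52 TPM for Dio3, and overlapped in pup 3. Without division by length the order turned round, to a log2 ratio of 1.16, because the Dio2 transcript has 5813 bases and Dio3 averaged 2030 and 1969 bases in pups 1 and 3.

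Both enzymes need a UGA codon to be read as selenocysteine in the active site, and that context is shown with the codon in capitals (coding strand, from the M21 transcripts). It is codon 130 of 266 in Dio2, at bases 90729823 to 90729825, and codon 170 of 304 in Dio3-long (ENSMUST00000173014), at bases 110279739 to 110279741. Of the 39 bases shown, 24 are the same in both genes.
Dio2: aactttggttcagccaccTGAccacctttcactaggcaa
Dio3-long: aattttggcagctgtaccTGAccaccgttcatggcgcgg

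The tables hold a single Dio2 transcript, which carries a further annotated selenocysteine codon near its end, codon 263. Of the Dio3 transcripts, Dio3-long held 100% of Dio3 TPM in pup 1 and 89.5% in pup 3, where Dio3-short, with 131 codons, held 10.5%. That share rested on 10.7 counts in pup 3. Dio2 also faces the noncoding gene Gm26512 over 100 exonic bases, but Gm26512 had 0.14 TPM in pup 1 and 0.08 TPM in pup 3.

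Of 12 genes that serve the deiodinases or belong to their family, 11 had 1 TPM or more in both pups, against 60.7% of nuclear protein-coding genes. The median over the 12 was 35.1 TPM. That of the detected protein-coding genes, a set without genes under 1 TPM, was 17 TPM. Selenop, the plasma carrier of selenium, had 171 TPM in pup 1 and 155 TPM in pup 3. Wsb1, part of a ubiquitin ligase that targets the Dio2 protein, had 186 TPM in pup 1 and 131 TPM in pup 3. Sephs2, which makes the selenium donor, had 63.7 TPM in pup 1 and 58.1 TPM in pup 3. The exception was Dio1, the deiodinase of liver and kidney, at 0.05 TPM in pup 1 and 0.02 TPM in pup 3 from 2 and 1 counts. Of the 11 tested, 8 were higher in pup 1 by TPM and 4 after TMM scaling, against 80.4% and 48.9% of all genes.

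Slco1c1 encodes OATP1C1, a thyroxine transporter of the rodent blood-brain barrier, choroid plexus and astrocytes. On chromosome 6 from 141524368 to 141570177, it had 26.2 TPM in pup 1 and 25.9 TPM in pup 3 (26.1 ± 0.212). Its ratio of pup 1 over pup 3 on TPM + 0.1, 1.01, was the closest to 1 among the 8 genes. After TMM scaling, however, its ratio was 0.829, the lowest of the 8. It was 2.31 and 2.64 times Klf9, the next gene below it, in pups 1 and 3, a mean log2 ratio of 1.30 ± 0.13 that exceeded the spread.

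The RNA of Slco1c1 was divided between 2 transcripts. Slco1c1-full (ENSMUST00000032362), with 715 codons, held 53.7% in pup 1 and 53.3% in pup 3. Slco1c1-NMD (ENSMUST00000135562), annotated as a target of nonsense-mediated decay, held 46.3% in pup 1 and 46.7% in pup 3. Their deposited TPM intervals overlapped in both pups, with 11.8 to 16 for Slco1c1-full and 9.27 to 14.1 for Slco1c1-NMD in pup 1, although Slco1c1-full was 1.16 and 1.14 times Slco1c1-NMD in pups 1 and 3, a mean log2 ratio of 0.20 ± 0.02 that exceeded the spread. Slco1c1-NMD uses an acceptor 41 bases further into an exon, which shifts the frame to a stop codon 16 bases after the junction and ends the reading frame at 469 codons. The stretch is shown on the plus strand of chromosome 6 (the 41 bases run from 141559741 to 141559781), with capitals for the 41 bases that only Slco1c1-full holds and for the stop codon of Slco1c1-NMD.
Slco1c1-full: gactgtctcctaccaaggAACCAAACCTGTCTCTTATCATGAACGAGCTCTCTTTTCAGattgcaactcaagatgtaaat
Slco1c1-NMD: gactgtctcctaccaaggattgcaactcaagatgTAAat

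The forms also differ at the 3′ end, where the last exon has 872 bases in Slco1c1-full and 415 in Slco1c1-NMD.

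**Figure D3:**
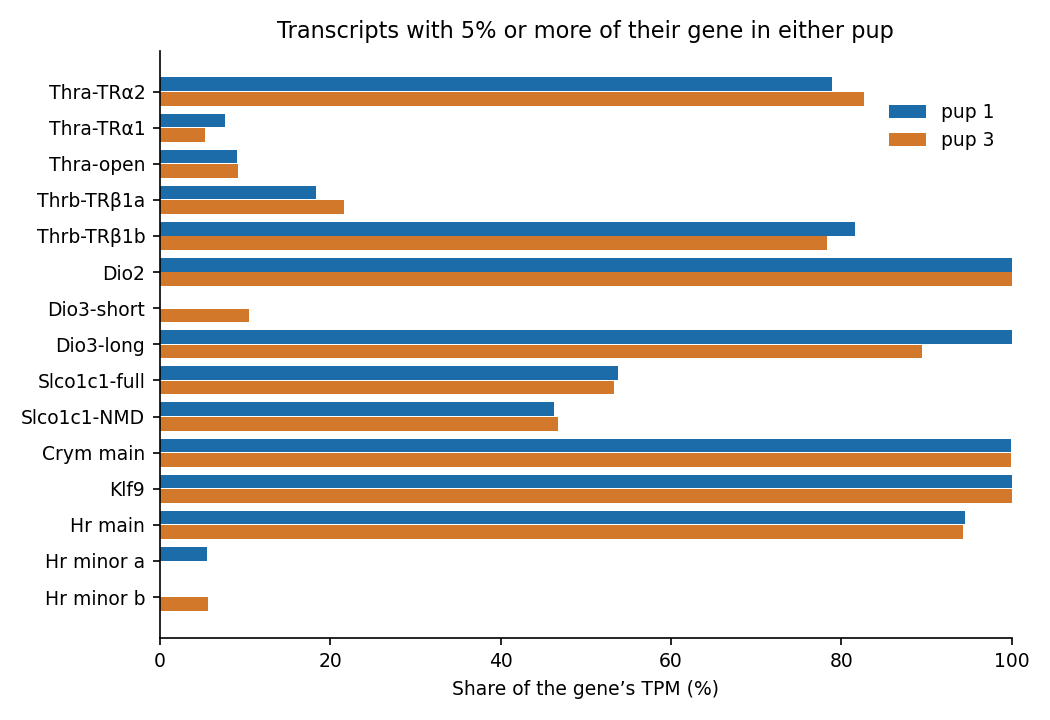
Share of each gene's TPM (x axis, percent) held by the transcripts with 5% or more in either pup, under the names given in the text (Hr has a pair of minor transcripts, a and b), with pup 1 above pup 3 in each pair of bars. Thra-TRα2 holds 78.9% and 82.7% of Thra, and Slco1c1-full and Slco1c1-NMD each hold close to an equal part of Slco1c1 in both pups.

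Among other carriers of the hormone, 7 of 11 genes had 1 TPM or more in both pups. Ttr, the thyroxine carrier made by the choroid plexus, was highest at 1335 TPM in pup 1 and 1043 TPM in pup 3. Slc3a2 and Slc7a5, the chains of an amino acid transporter that also carries the hormone, had 127 and 58.8 TPM in pup 1 and 128 and 53.7 TPM in pup 3. Slc16a10 (MCT10) was low at 0.49 TPM in pup 1 and 0.46 TPM in pup 3. The liver transporter Slco1b2 had 0 counts in pup 1 and 1 count in pup 3. Of the 7 carriers tested, 6 were higher in pup 1 by TPM and 2 after TMM scaling, against 80.4% and 48.9% of all genes. Of these carriers 0 met a 2-fold rule that called 3.98% of all genes between the pups.

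Crym had the second highest mean of the 8 genes. It encodes mu-crystallin, a cytosolic protein that binds triiodothyronine and is also a ketimine reductase, and it lies on the minus strand of chromosome 7 from 120186380 to 120202111. Crym had 149 TPM in pup 1 and 105 TPM in pup 3 (127 ± 30.5), above 90.1% of detected protein-coding genes, and its main transcript held 99.9% of it in both pups. Thra was 1.36 and 1.76 times Crym in pups 1 and 3, a mean log2 ratio of 0.63 ± 0.27 that did not exceed 3 SD. Thra was the higher of the 2 in both pups, and their deposited intervals lay apart in both. Crym was 5.65 and 4.06 times the next gene, Slco1c1, which exceeded the spread.

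The receptor target genes differed in level. Klf9, a Krüppel-like repressor induced by the hormone in neurons, lies on chromosome 19 from 23141226 to 23168134 and had 11.3 TPM in pup 1 and 9.77 TPM in pup 3 (10.5 ± 1.06). Hr, or hairless, a corepressor that binds the receptors, lies on chromosome 14 from 70552212 to 70573548 and had 0.91 TPM in pup 1 and 0.79 TPM in pup 3, under 1 TPM in both. Klf9 was 11.3 and 11.1 times Hr in pups 1 and 3 (mean log2 3.48 ± 0.02), a gap larger than the spread. Klf9 has 3263 bases in the deposited tables and 4486 in M21, and its TPM uses the shorter length. Hr rested on 122 and 120 counts in pups 1 and 3, of which the main transcript received 115 and 113. Posterior mean TPM of Hr was higher than its TPM, at 1.26 in pup 1 and 1.1 in pup 3, so that estimate puts Hr over 1 TPM.

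In all, 6 of the 8 genes had 1 TPM or more in both pups, against 60.7% of nuclear protein-coding genes. Thrb reached it in pup 1 alone and Hr in neither. From the top, Crym over Slco1c1, Slco1c1 over Klf9 and Klf9 over Dio3 were the neighbours whose gap exceeded the spread. Thra and Crym, Dio3 and Dio2, Dio2 and Thrb, and Thrb and Hr were neighbours that did not differ beyond it. Dio2 over Thrb fell just short of 3 SD, at a mean log2 ratio of 0.9092 ± 0.3035. Their deposited intervals lay apart in both pups, as did those of Thra and Crym, whereas those of Thrb and Hr overlapped in both. In bulk tissue fewer cells of a type and less RNA per cell cannot be told apart, which holds for each level given here.

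Between the pups, 0 of the 8 genes differed under a rule of 2-fold or more on TPM + 0.1, a mean of 1 TPM or more and deposited intervals that do not overlap. The rule called 3.98% of all genes tested, and Hr could not be called because its mean is under 1 TPM. At 1.5-fold the rule called Thrb, at 1.63-fold higher TPM in pup 1, where it called 16.9% of all genes in either direction and 16.5% as higher in pup 1. Deposited intervals lay apart for 5 of the 7 members tested, Thra, Crym, Klf9, Dio3 and Thrb. TPM of these was higher in pup 1, as for 48% of all genes, and 0 were apart and higher in pup 3, against 5.66% of all genes. TPM was higher in pup 1 for 7 of the 7 members tested, as for 80.4% of all genes. After TMM scaling, 3 of these 7 were higher in pup 1, namely Thrb, Dio3 and Crym, while Thra, Slco1c1, Klf9 and Dio2 had ratios under 1.

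The TMM-scaled ratios of pup 1 over pup 3 ran from 0.829 for Slco1c1 (exact Clopper-Pearson 95% interval 0.778 to 0.883) to 1.39 for Thrb (1.13 to 1.73). That of Thra was 0.878 (0.855 to 0.901) and that of Crym 1.15 (1.11 to 1.2). Those of Dio3, at 1.23 (0.988 to 1.55), Dio2, at 0.999 (0.863 to 1.16), Klf9, at 0.945 (0.859 to 1.04), and Hr, at 0.944 (0.726 to 1.22), had intervals that include 1. These intervals cover counting error only and compare 2 libraries, not conditions. Among all genes tested, 82.6% had a smaller absolute TMM-scaled log2 ratio than Thrb, and 58.6% a smaller one than Slco1c1.

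**Figure D4:**
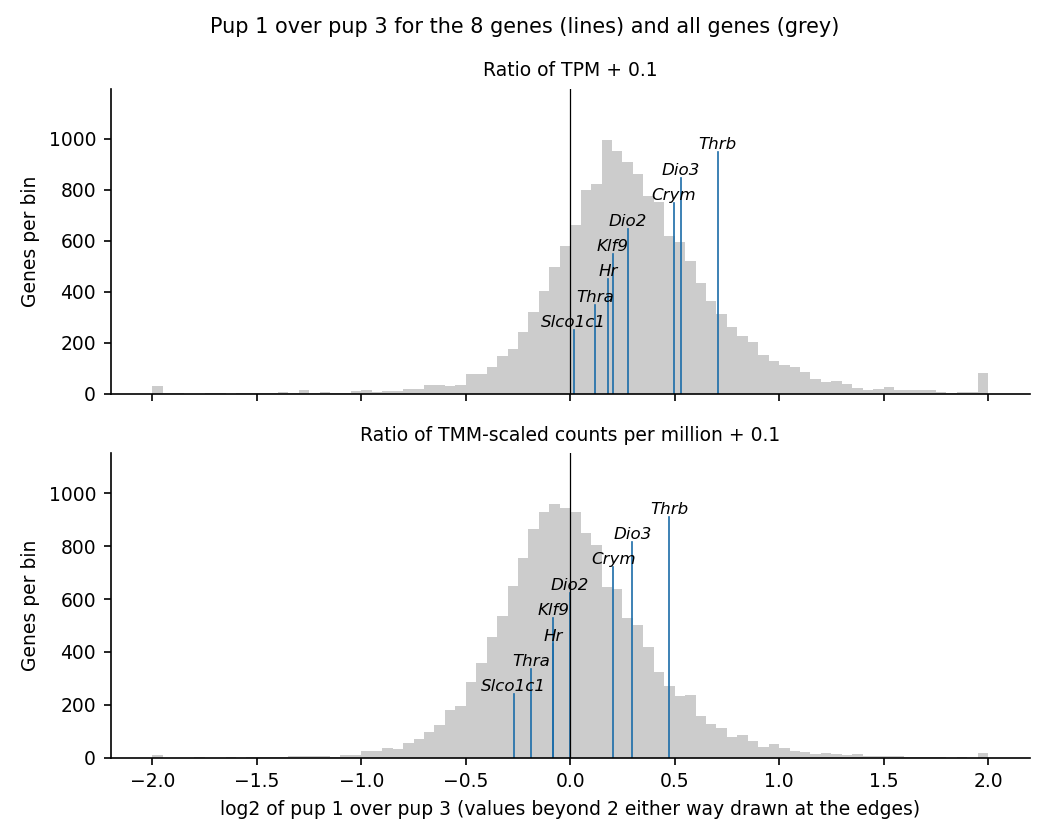
Distribution over 14985 genes of the log2 ratio of pup 1 over pup 3 (x axis) from TPM, above, and from TMM-scaled counts, below, with the 8 genes as labelled lines. The 8 genes lie right of 0 on TPM, as most genes do, and on both sides of 0 after TMM scaling.

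The libraries differed in regional markers. Of 12 thalamic and hypothalamic genes, 9 had a mean of 1 TPM or more. By the 2-fold rule 9 of these 9 were higher in pup 1, where it called 3.85% of all genes in that direction. They were Tcf7l2, Avp, Slc17a6, Pmch, Rora, Lhx9, Gbx2, Hcrt and Oxt. On TPM they ran from 2.1-fold for Rora to 4.31-fold for Lhx9. After TMM scaling the range was 1.7-fold for Rora to 3.62-fold for Lhx9, with Rora, Slc17a6 and Avp under 2-fold. The 12 genes summed to 561 TPM in pup 1 and 225 TPM in pup 3, and the 9 tested had a median log2 ratio of 1.33 on TPM and 1.05 after TMM scaling. Cortical neuron genes summed to 595 TPM in pup 1 and 699 TPM in pup 3, of which Neurod6 alone had 206 TPM in pup 1 and 329 TPM in pup 3. The gap of Neurod6 is larger than that of the sums, so without it the summed TPM was higher in pup 1. Of the 10 cortical neuron genes, 5 were higher in pup 1 by TPM and 2 after TMM scaling, against 80.4% and 48.9% of all genes. Their median log2 ratio was -0.004 on TPM and -0.29 after TMM scaling. The TMM-scaled median was 0.26 for 10 astrocyte genes, summed at 651 and 484 TPM in pups 1 and 3, and 0.03 for 6 of 8 tanycyte genes, a list that includes Crym and in which the defining gene Rax had 2 and 0 counts. Endothelial genes summed to 230.5 TPM in pup 1 and 226 TPM in pup 3, with a TMM-scaled median of -0.18. Choroid plexus genes summed to 1472 TPM in pup 1 and 1152 TPM in pup 3, most of it Ttr, with a TMM-scaled median of 0.14 over the 7 of 9 tested. Slco1c1, known from endothelium, choroid plexus and astrocytes, had a TMM-scaled log2 ratio of -0.27, of the same sign as the endothelial median and of the opposite sign to the other 2. Whether these marker levels have a part in the differences of Thrb, Crym or Slco1c1 was not tested.

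Partners of the receptors were detected throughout, with 15 of 15 genes at 1 TPM or more in both pups and a median of 22.4 TPM. Hdac3, the deacetylase of the corepressor complex, had 134 TPM in pup 1 and 117 TPM in pup 3. Ncor1, the corepressor that binds receptors without hormone, had 131 TPM in pup 1 and 88.5 TPM in pup 3. Gps2, another subunit of that complex, had 56.2 TPM in pup 1 and 55.7 TPM in pup 3. Of the retinoid X receptors, the dimer partners of the receptors, Rxrb and Rxrg had 48.7 and 37.8 TPM in pup 1 and 45.8 and 25.1 TPM in pup 3. Rxra was the lowest of the 15, at 1.83 TPM in pup 1 and 1.38 TPM in pup 3. By TPM 15 of 15 were higher in pup 1, and after TMM scaling 12 of 15, with a median log2 ratio of 0.59 and 0.31. Of all genes tested, 80.4% were higher in pup 1 by TPM and 48.9% after TMM scaling, with medians of 0.27 and -0.01. The 2-fold rule was met by 0 of the 15, against 3.98% of all genes.

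Of 15 brain genes reported in rodents as responsive to the hormone, 13 had 1 TPM or more in both pups, with a median of 5.62 TPM. Nrgn (neurogranin), a postsynaptic calmodulin-binding protein, led with 153 TPM in pup 1 and 127 TPM in pup 3. Reln, the migration signal of Cajal-Retzius cells, had 34.3 TPM in pup 1 and 29.7 TPM in pup 3. Mbp, a myelin protein gene, had 18.45 TPM in pup 1 and 13.8 TPM in pup 3. Pcp2, a Purkinje cell gene of the cerebellum, was lowest, at 0.04 TPM in pup 1 and 0.18 TPM in pup 3. Of the 13 tested, 11 were higher in pup 1 by TPM and 7 after TMM scaling, against 80.4% and 48.9% of all genes.

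The 2-fold rule called 2 of the 13, both higher in pup 1, where it called 3.85% of all genes in that direction. Camk4, a calcium-dependent kinase, had 15.7 TPM in pup 1 and 6.56 TPM in pup 3. Rasd2, a small GTPase of striatal neurons, had 4.05 TPM in pup 1 and 1.51 TPM in pup 3. After TMM scaling the ratio of pup 1 over pup 3 was 1.95 for Camk4 and 2.16 for Rasd2.

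**Figure D5:**
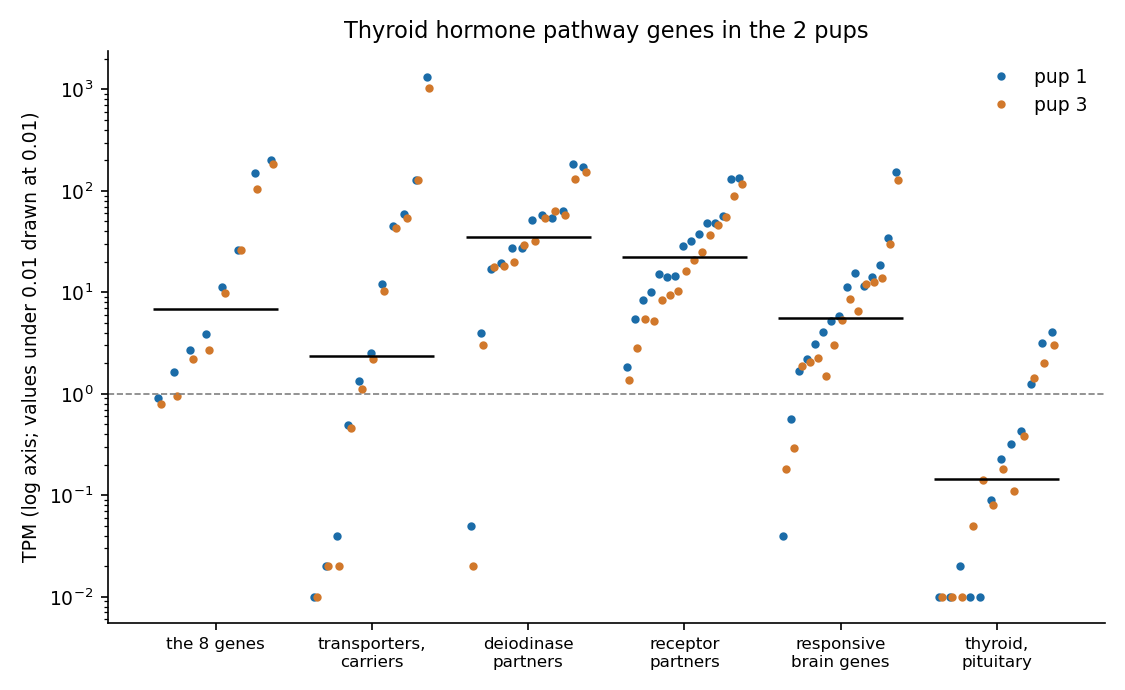
TPM (log axis) of the 8 genes and of 5 lists of related genes, each gene as a point for pup 1 with its pup 3 value just to the right, with the median of each list as a black line and 1 TPM as a dashed line. Values under 0.01 TPM are drawn at 0.01. Medians run from 35.1 TPM for deiodinase partners to 0.145 TPM for thyroid and pituitary genes.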

How the data were processed

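Forebrain RNA from 2 pups (10 ng of RNA longer than 200 nt per library, per the labels) was quantified by the authors on mm10 with GENCODE M4, per the labels and the notes deposited with each sample. Which aligner and quantifier they ran, and whether strand was used, is not stated there. Expected counts, TPM, posterior mean TPM, the bounds of a credibility interval (a signal in TPM, level not given) and the percent share of each transcript were used as deposited by the authors, per the file headers. Expected counts divide reads shared between features. Per the deposited tables, rows outside genes held 0.000845% and 0.000693% of counts in pups 1 and 3 and were left out.

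Symbols, positions and reading frames came from GENCODE M21 on GRCm38, the build named mm10, matched without version: 42462 genes matched and 884 did not. Of 25 member transcripts, 20 have the same length in both releases. Printed sequences come from the M21 transcripts.

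Counts rounded to whole numbers were scaled by TMM (edgeR 4.0.16) or size factors (DESeq2 1.42.0) over 16931 genes with 10 counts or more in both pups, in R 4.3.3. Tables were made with pandas 2.3.3 and numpy 2.4.6 under Python 3.11.15, intervals with scipy 1.17.1 and plots with matplotlib 3.10.9. Ratios used a pseudocount of 0.1 TPM. The spread between the pups may be partly technical.

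The members and lists were chosen with earlier results of these data known. Named were the members, transcripts of 10% or more in either pup, pair genes, overlapping genes and, of each pathway list, the 3 highest, the lowest and those called; marker and thyroid lists are given mainly by sums and counts. Smaller Thra forms, Thrb-TRβ2, Slc16a10, Rxrb, Rxrg, Neurod6 and Rax fall outside that rule and were named after their values were seen. A planned comparison is not reported here.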

Additional observations from a re-analysis of the deposited data

How the results depend on the processing

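No paired analysis was possible because both pups belong to 1 group. Under the alternatives for the 9 main results, 1 of them not reported here, 47 values kept their direction and call. The exceptions were the count of members differing between the pups, 0 at 2-fold and 1 at 1.5-fold, the log2 ratio of Dio2 over Dio3, -0.39 on TPM and 1.16 on counts not divided by length, and the Thra-TRα2 share, 80.8% of all and 83.9% of protein-coding transcripts. Length sets the Dio ratio apart and the smaller set of transcripts the Thra share, by construction. The number of members over the detection threshold was 6 at 1 TPM and ran from 4 at a threshold of 5 TPM to 8 at 0.5 TPM. Pup 1 alone gave 7 members and pup 3 alone 6. Single pups gave Thra over Thrb between 6.87 and 7.45, Dio2 over Dio3 between -0.52 and -0.27, Klf9 over Hr between 3.47 and 3.49, and a Thra-TRα2 share between 78.9% and 82.7%. The ratios of Thra-TRα2 over Thra-TRα1 and of Slco1c1-full over Slco1c1-NMD were added after the data were seen. They ran between 3.36 and 3.97 and between 0.19 and 0.21 over single pups. Mean TPM moved beyond 1 SD for 5 of 8 members when rescaled to nuclear protein-coding genes and for 2 of 8 with posterior mean TPM. Counts near 120 to 230 limit Hr, Dio3 and Thrb most.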
